A study of Rattus norvegicus with 8 samples.

Results

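The genes described here are 9 genes that act around ovulation: the EGF-like ligands Areg, Ereg and Btc, the hyaluronan matrix genes Has2, Ptx3, Tnfaip6 and Vcan, the prostaglandin synthase Ptgs2 and the progesterone receptor Pgr. They were listed by name, and their members on the array are the probe sets whose platform annotation names exactly one of them. Of the 9 genes, 8 had at least 1 such probe set, 13 in all among 31099 on the array, and the annotation named 14217 genes in all. Ptx3 was not analysed here.

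RNA came from granulosa cells of rat ovaries, which line the follicle and enclose the oocyte, and was measured on 8 one-colour Affymetrix arrays, 1 array per sample. Per the series' design text, immature rats were given eCG, a gonadotropin that makes follicles grow, and 24 h later either an anti-eCG antibody, after which follicles became atretic, or pre-immune serum. Oocytes of the serum group developed to term at 30 to 50% after embryo transfer and those of the antibody group at 0%. The labels of the arrays are bare numbers, and none says which treatment an array belongs to. The treatments are therefore not compared, and what follows gives each array's value and the spread over all 8. Both groups share eCG as the starting stimulus. The labels do not say whether an array holds 1 animal or several, whether arrays come from separate animals, or which cells other than granulosa cells may be present.

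In a follicle that meets the luteinizing hormone surge, mural granulosa cells make EGF-like ligands as membrane-bound precursors, which are cleaved and activate the EGF receptor on the same and neighbouring cells and on the cumulus cells around the oocyte. Cumulus cells respond by making hyaluronan and the proteins that cross-link it, and this matrix expands before the follicle ruptures. Prostaglandin E2, made through Ptgs2, and the progesterone receptor of mural granulosa cells are both required for normal ovulation.

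The genes fell into 2 kinds on these arrays. Ereg and Ptgs2 were far higher on 1 array, labelled 2198, than on any of the other 7, and Areg was highest there by a smaller distance. Has2, Pgr and Vcan were not, and the brightest probe set of each had its highest signal on another array. A weaker Vcan probe set, 1371233_at, was highest on array 2198. Signals are on the arrays' linear scale after each array was scaled to a common median. Btc and Tnfaip6 were too weak on most arrays to be compared.

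Promoters are shown for 2 of the 3 genes that stood out on array 2198, and for Vcan, whose signal was high on every array, so that the sequence next to each start site can be read beside the values. The windows come from RefSeq on the GRCr8 assembly and run from 250 bases before the gene's start to 50 bases after it. The table held windows for 7 of the 9 genes and none for Ereg or Has2. They read 5′ to 3′ on the gene's strand. Capitals mark any of 6 motifs searched on both strands: the cAMP response element TGACGTCA and its core TGACG, the E-box CACGTG, the AP-1 site TGANTCA, the TATA box TATAAA and the GC box GGGCGG. The full cAMP response element contains its core on each strand. The Areg window lies at chr14:17265592-17265891 on the minus strand, the Ptgs2 window at chr13:64713813-64714112 on the plus strand, and the Vcan window, 1 of 2 overlapping windows for that gene, at chr2:22595808-22596107 on the minus strand.
Areg: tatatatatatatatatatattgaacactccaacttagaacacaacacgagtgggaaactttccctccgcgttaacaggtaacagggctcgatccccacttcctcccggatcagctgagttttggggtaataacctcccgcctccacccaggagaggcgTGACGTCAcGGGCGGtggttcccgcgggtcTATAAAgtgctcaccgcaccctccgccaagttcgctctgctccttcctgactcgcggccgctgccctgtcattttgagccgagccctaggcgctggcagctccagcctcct
Ptgs2: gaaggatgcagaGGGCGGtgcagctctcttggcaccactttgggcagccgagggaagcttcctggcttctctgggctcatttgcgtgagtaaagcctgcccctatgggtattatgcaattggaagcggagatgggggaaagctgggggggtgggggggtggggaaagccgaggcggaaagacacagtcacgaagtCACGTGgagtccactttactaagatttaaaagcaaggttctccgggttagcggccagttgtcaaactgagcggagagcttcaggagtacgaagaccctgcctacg
Vcan: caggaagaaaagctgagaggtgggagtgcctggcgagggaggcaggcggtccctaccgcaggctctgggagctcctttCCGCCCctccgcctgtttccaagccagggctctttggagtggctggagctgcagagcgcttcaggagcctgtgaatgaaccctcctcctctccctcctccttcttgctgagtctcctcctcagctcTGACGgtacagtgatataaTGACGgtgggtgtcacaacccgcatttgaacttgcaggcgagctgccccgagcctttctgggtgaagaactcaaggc

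The Areg window held TGACGTCA at bases -91 to -84 from the start, a GC box at -82 to -77 and a TATA box at -61 to -56. The full element occurs in 1.83% of the 33469 windows in the table, the core TGACG in 21.2%, the TATA letters in 14.2% and the GC box in 33.1%. In the Ptgs2 window CACGTG lay at -55 to -50, letters found in 6.42% of windows, and a GC box at -238 to -233. The Vcan window shown held TGACG at -46 to -42 and at -27 to -23, and a GC box at -172 to -167. The other Vcan window held no TGACG, only a GC box at -74 to -69, so these matches depend on the start site used. The AP-1 letters, present in 7.33% of windows, were found among these genes in the Tnfaip6 window, at -192 to -186. These are matches of letters and not sites shown to be bound.

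Signals near the background of an array have no reliable order, so a floor was set at the 40th percentile of each array, which lay between 275 and 474. A gene counted as measured when its brightest probe set exceeded the median signal of 2 or more arrays. That held for 6 of the 8 genes, Areg, Ereg, Has2, Ptgs2, Pgr and Vcan, and for 10467 genes in all. Btc was above the median on 1 array and Tnfaip6 on 0. On array 2198 the ratio of 3' to 5' signal for Gapdh, a measure of RNA integrity, was 5.27, the lowest of the 8 (up to 8.81). For beta-actin it was 5.03 on array 2198, above the 4.67 of arrays 2195 and 2199. On arrays 2074 and 2076 the same ratio for beta-actin was 11.0 and 12.1, against 4.67 to 8.08 on the other 6. The granulosa genes Cyp11a1, Inha and Foxl2 had their lowest signals at 118240, 26862 and 3592, far above the floor. Inhba, Inhbb, Nr5a2, Gja1 and Fst stayed at 4639 or above. Cyp19a1 fell to 991 on array 2076 and Hsd17b1 to 1073 on array 2196. Amh was weak, from 243 on array 2199, where it was at the floor, to 1062. Lhcgr, the receptor for luteinizing hormone, was lowest at 756 on array 2196. The lowest Foxl2 signal was on array 2198.

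**Figure D1:**
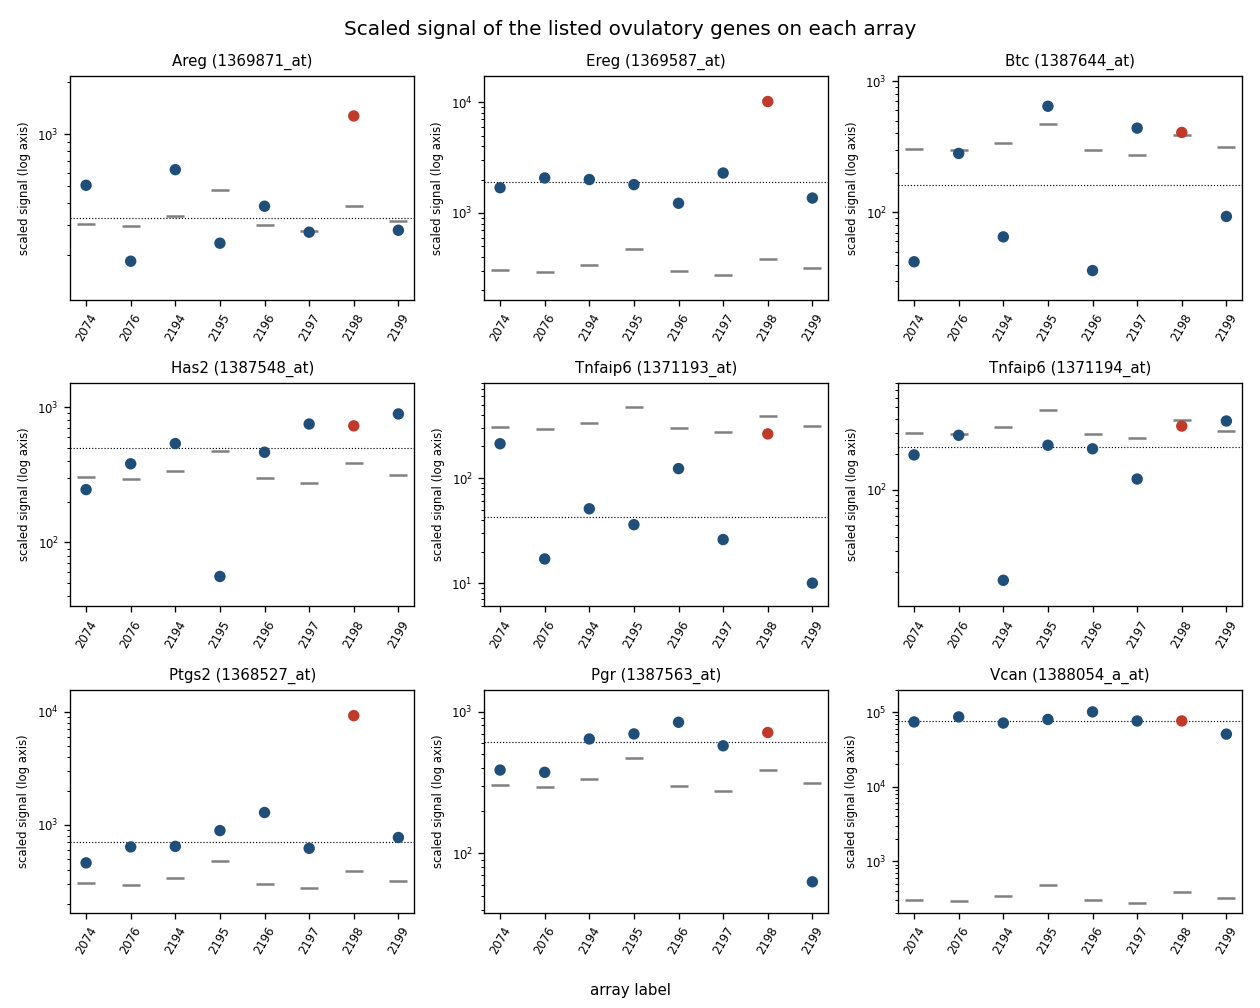
Scaled signal (log axis) of each gene's probe set on the 8 arrays, named by label number. Array 2198 is red, grey bars are each array's floor and the dotted line is the median of the 8. Ereg and Ptgs2 reach 10139 and 9268 on array 2198, while most Btc and Tnfaip6 values lie at or under the floor.

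Ereg encodes epiregulin, an EGF receptor ligand. Its signals on arrays 2074, 2076, 2194, 2195, 2196, 2197, 2198 and 2199 were 1690, 2070, 2004, 1803, 1224, 2294, 10139 and 1364. Array 2198 stood alone, and the other 7 lay within 1.87-fold of each other. It was 4.42-fold above the next highest array, 2197, and 5.62-fold above the median of the other 7. Within its own array, Ereg sat at the 95.2 percentile of probe sets on 2198 and between 72.2 and 81.7 elsewhere.

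Ptgs2 encodes cyclooxygenase 2, the inducible enzyme of prostaglandin synthesis. In the same array order its signals were 461, 638, 645, 890, 1286, 620, 9268 and 773. Again array 2198 stood alone, 7.21-fold above the next highest array, 2196, and 14.4-fold above the median of the other 7. Those 7 spanned 2.79-fold, and they lay between the 51.5 and 73.1 percentiles of their arrays, against 94.8 on 2198.

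Areg encodes amphiregulin, another ligand of the EGF receptor. Its signals were 507, 185, 624, 235, 384, 272, 1273 and 279 in that order. It was much weaker on its probe set, at the floor on 4 arrays (2076, 2195, 2197 and 2199). Array 2198 was again the highest, 2.04-fold above the next, array 2194, and 3.32-fold above the median of the other 7 after the floor.

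Array 2198 was the highest of the 8 in 3 of the 6 measured genes, where 14.5% of all measured genes had their highest value there. In the same 3 it was at least 2-fold above the next highest array, which 37 of 10467 genes, or 0.353%, reached. Ptgs2 and Ereg ranked 1 and 2 among all measured genes by that distance, and Areg ranked 33. Some array led the next by at least 2-fold in 2.48% of genes and by at least 4-fold in 5 genes (0.0478%), among them Ptgs2 at rank 1 and Ereg at rank 3. Array 2198 and the 2-fold distance were picked out after the values were seen, and these counts are descriptions with no test. Ptgs2 and Ereg kept ranks 1 and 2 under each of the 15 alternatives run, with leads of 6.75 to 10.4-fold and 4.24 to 4.89-fold. Areg was led by 1.94 to 2.50-fold under the 14 in which it was measured, and fell short of 2-fold with quantile normalization. Each of the 3 genes has a single probe set here, so no other probe set checks its value.

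**Figure D2:**
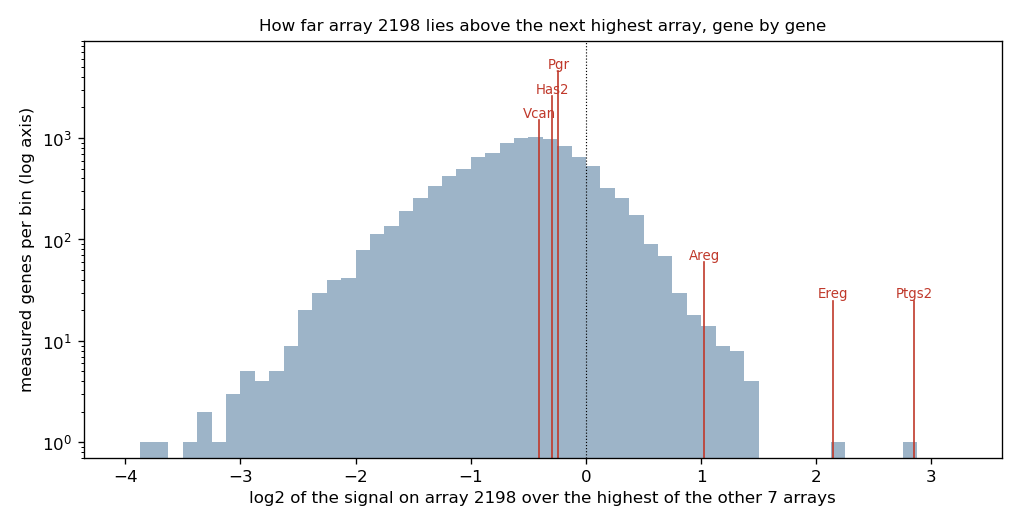
Histogram, over 10467 measured genes, of the log2 ratio of the signal on array 2198 to the highest of the other 7 arrays, with the number of genes on a log axis and red lines for the 6 measured genes. Ptgs2 (7.21-fold) and Ereg (4.42-fold) lie beyond all other genes and Areg (2.04-fold) in the right tail, while Pgr, Has2 and Vcan lie left of 0.

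Marker lists of other cells were summed on each array. The measured leukocyte and macrophage markers, 5 of 8 listed, summed to 8040 on array 2198 and to 4838 to 8384 on the others. Ptprc, Itgam and Adgre1 of that list were not measured, while Cd68 and Cd14 each had their highest signal on 2198, by 1.07-fold and 1.13-fold over the next array. The remaining markers of the list were not highest there. After the floor, array 2198 ranked 3 of 8 for Csf1r and 4 for Lyz2 and for Cd163. Theca markers (5 of 5) summed to 78831 against 50746 to 80813 elsewhere, and within them Cyp17a1, an androgen-making enzyme that defines theca cells, was highest on 2198 at 1166, 1.77-fold above the next array, and lay at the floor on 5 arrays. Acta2, smooth muscle actin, was also highest there, at 3090, 1.52-fold above the next. The remaining theca markers were not. Insl3 was at 562 on array 2198 and highest on 2195 at 1015, and array 2198 ranked 3 for Lhcgr and 4 for Star. Stroma markers (5 of 6, without Pdgfra) summed to 3192 against 1973 to 5305. Granulosa markers (11 of 12, Fshr having no probe set here) summed to 630918 against 542248 to 762575. Endothelial markers (3 of 6) gave 962 against 685 to 3189, erythroid ones (2 of 5) 9338 against 3817 to 49029, and oocyte ones (2 of 7) 1207 against 261 to 1887. Epithelial markers (2 of 5) gave 675, below the 771 to 1086 of the other arrays. Array 2198 was within the range of the other 7 for 7 of the 8 lists, but these sums rest on their brightest genes. Without the brightest marker of each list, an alternative added after the values were seen, it was within the range for 6 of 8. The theca sum without Star was then 8537 on array 2198 against 2123 to 6305 on the others, and the leukocyte and macrophage sum without Lyz2 was 4850 against 2407 to 4523. Array 2198 was above all others in both. The largest parts of that theca sum on array 2198 were Lhcgr, at 3720, and Acta2, at 3090. Lhcgr was as high on arrays 2074, 2197 and 2199, at 3672, 3748 and 3723. A sum cannot tell more cells of a type from more RNA per cell, and the part of theca or leukocyte genes in the signals of Areg, Ereg and Ptgs2 was not tested.

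As the 3 genes share array 2198, their correlations over the 8 arrays rested on it. For Ereg and Ptgs2 Pearson's r was 0.83 (exact permutation p = 0.116, two-sided, Benjamini-Hochberg adjusted p = 1.0 over 10466 genes) and Spearman's rho -0.05 (exact p = 0.935, adjusted p = 1.0). Without the 2 arrays farthest from the median of Ereg, 2196 and 2198, r was -0.21. For Areg and Ereg r was 0.77 (exact p = 0.0687, adjusted p = 0.998) and rho 0.10 (exact p = 0.84, adjusted p = 0.994), and r was 0.31 without arrays 2197 and 2198. For Areg and Ptgs2 r was 0.76 (exact p = 0.0732, adjusted p = 0.998) and rho 0.40 (exact p = 0.327, adjusted p = 0.975), and r was -0.26 without the same 2 arrays. None of these relations passed the adjustment. With array 2198 alone left out and the arrays scaled again, r was -0.63, -0.05 and -0.12 for the 3 pairs in that order. Over the other 7 arrays, then, no positive relation between the 3 genes was seen. Areg and Ereg are next to each other on chromosome 14, where the order of protein-coding genes is Btc, Areg, Ereg and Epgn.

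Btc, which encodes betacellulin, a further ligand of the EGF receptor, did not share that pattern as far as it could be read. Its single probe set gave 42, 281, 65, 643, 36, 438, 406 and 93. It was at the floor on 5 arrays, and on 2198 its signal lay just above the floor of 387. Its highest signal was on array 2195, whose floor of 474 was also the highest of the 8.

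Has2 encodes the hyaluronan synthase that builds the backbone of the cumulus matrix. Its signals were 246, 382, 539, 56, 465, 752, 729 and 893. Array 2199 was highest and array 2198 ranked 3, and arrays 2195 and 2074 were at the floor. The inner range, which divides the second highest value by the second lowest, was therefore no less than 1.97-fold. Without a floor its log2 inner range was 1.61, against 0.98 with it, so its size depends on how weak signals are treated.

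Tnfaip6, which encodes the protein that moves heavy chains of inter-alpha-inhibitor onto hyaluronan, had 2 probe sets, and neither was measured. The brighter of them, 1371194_at, ran from 17 on array 2194 to 382 on array 2199 around a median of 230, at the floor on 7 arrays. The other, 1371193_at, ran from 10 to 263 around a median of 43 and was at the floor on all 8. At this signal no difference between arrays was detectable.

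Pgr, the nuclear receptor for progesterone, gave 387, 373, 641, 696, 841, 574, 712 and 63. Its highest value was on array 2196 and its lowest on 2199, the 1 array at the floor. The inner range was 1.91-fold and the full range, highest over lowest, at least 2.66-fold. Arrays 2074 and 2076 were both lower than the 5 arrays 2194 to 2198. With only arrays 2194 to 2199 used, the log2 inner range fell from 0.93 to 0.30.

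Vcan encodes versican, a large proteoglycan that binds hyaluronan, and was the brightest and flattest of the genes on its own probe set, 1388054_a_at. Its signals were 73619, 86039, 71210, 79584, 100535, 75872, 76022 and 50564. The inner range was 1.21-fold, narrower than in all but 3.0% of measured genes, and the full range was 1.99-fold, from array 2199 up to array 2196. Vcan and Pgr were both lowest on array 2199 and highest on 2196. Array 2199 was the lowest in these 2 of 6 genes and in 12.4% of all measured genes. For this pair r was 0.63 (exact permutation p = 0.0793, adjusted p = 0.829) and rho 0.55 (exact p = 0.171, adjusted p = 0.971), and r was 0.62 without arrays 2076 and 2199, the 2 farthest from the median of Pgr.

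The 5 probe sets of Vcan did not follow each other closely. Beside the brightest, 1371232_a_at ran from 35372 to 80319 (inner range 1.81-fold) and was highest on arrays 2076 and 2198. The probe set 1371233_at ran from 668 on array 2074 to 2356 on array 2198 (2.18-fold). The remaining ones, 1388142_at and 1388265_x_at, had inner ranges of 1.61-fold and 1.54-fold. An ending in "_a" marks a probe set matching several transcripts of a gene and "_x" one that may cross-hybridise. Of the 5, 4 had array 2199 in their lowest 2 values, and 1388265_x_at did not. Pearson's r over the 10 pairs ran from -0.19 to 0.78, with a median of 0.42 against 0.15 over 4739 pairs of probe sets of the same gene on these arrays. None of the 10 had an adjusted p under 0.05 by exact permutation over all 4739 pairs, and 0 of all 4739 did. The highest r, 0.78, was reached by 2 pairs. Between 1388054_a_at and 1388142_at it had an exact p of 0.0147 (adjusted p = 0.336, rho 0.57 with exact p = 0.151 and adjusted p = 0.671) and was 0.50 without the 2 arrays farthest from the first one's median. Between 1371232_a_at and 1388142_at it had an exact p of 0.0243 (adjusted p = 0.366, rho 0.81 with exact p = 0.0218 and adjusted p = 0.467) and was 0.97 without 2 arrays chosen the same way. A reading of Vcan therefore depends on the probe set.

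**Figure D3:**
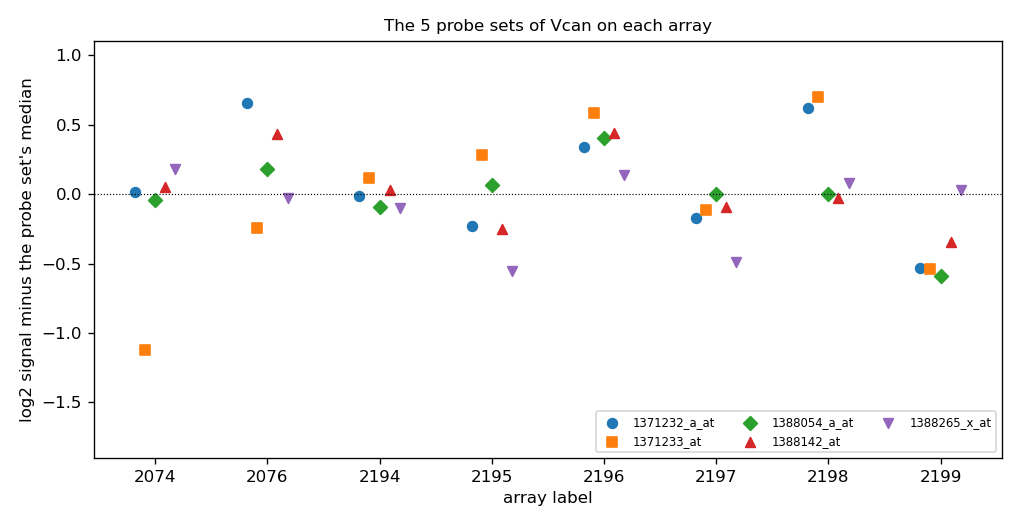
Log2 signal of the 5 probe sets of Vcan minus each one's median, on each array. On array 2199 the points of 4 probe sets lie below 0 while 1388265_x_at is near 0, and 1371233_at is far below the others on array 2074, where its signal was 668.

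How much the genes varied depended on whether the single extreme array was counted. By inner range, 2 of the 6 measured genes, Areg (at least 2.10-fold) and Ptgs2 (2.08-fold), reached 2-fold, against 29.8% of all measured genes. Their median log2 inner range was 0.95 and that of all measured genes 0.78. By full range, 3 of 6 reached 4-fold, Ptgs2 at 20.1-fold, Ereg at 8.28-fold and Areg at no less than 4.63-fold, against 13.1% of all genes. Without array 2198 the count of genes with a 2-fold inner range was 0, where the share over all genes was 23.4%. With arrays 2194 to 2199 alone it was also 0, where that share was 11.9%. Leaving out another single array gave 1 or 2. It was 1 without array 2076, 2194 or 2197, where Areg no longer reached it, and 1 without array 2196, where Ptgs2 did not.

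**Figure D4:**
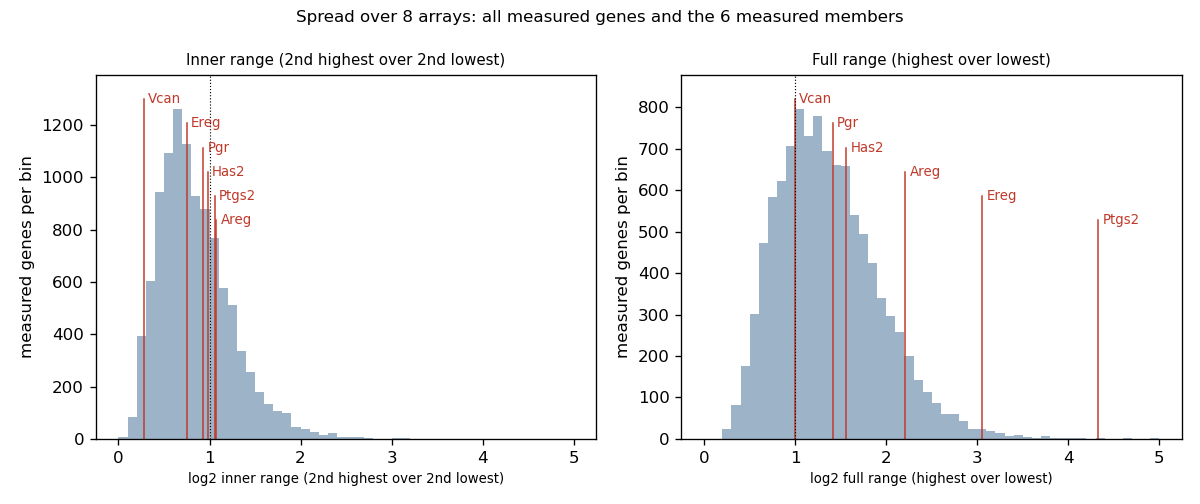
Histograms of the log2 inner range and log2 full range of 10467 measured genes over the 8 arrays, with red lines for the 6 measured genes and a dotted line at 2-fold. By inner range Vcan (0.27) lies in the left tail and the other genes within the bulk, up to 1.07 for Areg. By full range Ptgs2 (4.33) and Ereg (3.05) lie in the far right tail.

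For the EGF receptor pathway, of 22 genes listed for receptors, other ligands, shedding and signalling, 19 had a probe set and 14 were measured, and 7 of these had a 2-fold or wider inner range (median log2 inner range 0.95). Over all measured genes the share was 29.8% and the median 0.78. Array 2198 was highest in 1 of the 14, against 14.5% of all genes, and at least 2-fold above the next in 0, against 0.353%. Nrg2, a neuregulin, had the widest inner range, at least 5.98-fold. Errfi1, which encodes an inhibitor of the EGF receptor induced by its own signalling, was lowest on array 2074 at 25069 and highest on 2196 at 98761, a 3.07-fold inner range. Dusp6, a phosphatase that switches off ERK, had 2.78-fold, between 11308 on array 2074 and 41603 on array 2076. On array 2198 Errfi1 was at 70310, rank 3 of 8, and Dusp6 at 26196, rank 5. Adam17, the protease that sheds such ligands from the membrane, was flat, with an inner range of 1.30-fold, and was lowest on array 2198 at 7023. The receptor gene Egfr, named after its values were seen, had 11702 on array 2198 and an inner range of 1.56-fold. The receptor genes Erbb2, Erbb3 and Erbb4 and the ligand genes Hbegf and Nrg1 were not measured.

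Of 25 genes listed for hyaluronan handling, 21 had a probe set and 16 were measured. A 2-fold inner range was reached by 4, against 29.8% of all genes, and the median log2 inner range was 0.71, against 0.78. Array 2198 was highest in 1 of the 16, against 14.5% of all genes. That 1 was Bcan, the proteoglycan brevican, at 2099 on 2198 with 3 arrays at the floor and an inner range no less than 3.25-fold. Itih1, a heavy chain of inter-alpha-inhibitor, had at least 2.54-fold, also with 3 arrays at the floor, and the hyaluronidase-like gene Hyal3 2.27-fold. Hapln1, which links proteoglycans to hyaluronan, had 1.15-fold around a median of 1193.

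Of 19 genes other than Ptgs2 listed for prostaglandin synthesis, transport and receptors, 18 had a probe set and 11 were measured. A 2-fold inner range was reached by 1, or 9.09%, against 29.8% of all measured genes. The median log2 inner range was 0.68, against 0.78. Array 2198 was highest in 3 of the 11, against 14.5% of all genes, and by at least 2-fold in 0, against 0.353%. Tbxas1, thromboxane synthase, was that 1 wide gene, at least 2.31-fold, with 1094 on array 2198, 1.5-fold above the next array. Cbr1, a carbonyl reductase, had an inner range of 1.98-fold and its lowest value, 22130, on array 2198. Pla2g4a, the phospholipase that frees arachidonic acid, had at least 1.83-fold, and on array 2198 its 686 was level with the 683 of array 2196. Ptgr1, a prostaglandin reductase, had 1.25-fold. The receptor genes Ptger1, Ptger2, Ptger4 and Ptgfr were not measured.

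Genes linked to the progesterone receptor or to ovulation varied about as much as all measured genes. Of 25 listed, 23 had a probe set and 21 were measured. A 2-fold inner range was reached by 7, or 33.3%, against 29.8% of all measured genes. Their median log2 inner range was 0.76, against 0.78. Array 2198 was highest in 3 of the 21, near the 14.5% of all genes. Those named here had their highest values on different arrays. Sult1e1, an oestrogen sulfotransferase, was highest on 2198 at 10918, 1.38-fold above the next array, and lowest on 2199 at 1361. Edn2, a vasoconstrictor peptide, was highest on array 2076 at 14564 and lowest on 2199 at 2254. Adcyap1, the neuropeptide PACAP, was highest on array 2196 at 10916, as Pgr was, and lowest on 2197 at 1604. Pgrmc1, a membrane protein unrelated to the nuclear receptor, was flat at 1.20-fold. The receptor for luteinizing hormone, Lhcgr, was level on 4 arrays, with 3672 on 2074, 3748 on 2197, 3720 on 2198 and 3723 on 2199. It was lower on the rest, with 1012 on 2076, 1839 on 2194, 1735 on 2195 and 756 on 2196. Its inner range was 3.68-fold. Cyp19a1, aromatase, had its highest, 20681, on 2198 and its lowest, 991, on 2076, with an inner range of 4.21-fold.

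For each measured gene the 2 most similar patterns among 10466 others were sought by Pearson's r over the 8 arrays. They were Ntf3 and Galnt10 for Areg (both r = 0.95), Depdc1b (0.97) and mrpl11 (0.95) for Ereg, and Tubb1 and Shisal2b for Ptgs2 (both 0.96). They were Klhl32 (0.98) and Tdp2 (0.97) for Has2, Sec11a (0.97) and Rhebl1 (0.93) for Pgr, and Khdrbs3 (0.95) and Sbno1 (0.93) for Vcan. Spearman's rho ran from 0.81 for Khdrbs3 to 0.95 for Ntf3 and Tdp2. Exact permutation p-values for r ran from 0.000149 for Tdp2 to 0.00414 for Khdrbs3, and those for rho from 0.00114 for Ntf3 and Tdp2 to 0.0218 for Khdrbs3. None passed adjustment over the 10466 genes, the smallest adjusted p by exact permutation being 0.156, for Klhl32 and Tdp2. In total 0 genes passed for any of the 6, by r or by rho, while 363 to 1537 per gene had an unadjusted p under 0.05. Without the 2 arrays farthest from the gene's median, r was 0.39 for Khdrbs3, 0.56 for mrpl11 and 0.58 for Sbno1, and 0.70 to 0.98 for the other 9. The likeness of those 3 thus rests on 2 arrays each. With no floor, r was 0.51 for Tdp2, 0.60 for Ntf3, 0.61 for Rhebl1, 0.66 for Klhl32 and 0.68 for Shisal2b. It was 0.73 to 0.97 for the rest, so the likeness of some depends on how weak signals are treated.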

How the data were processed

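Total RNA of rat granulosa cells was hybridised to one-colour Affymetrix arrays, per the labels. The deposited table holds linear signal intensity. MAS5 is the tool the authors used, per the submitters' processing notes, and no version is given there. With 2% trimmed from each end, array means were 1500.5 or 1500.6, so a scaling came before deposit. No detection calls were used.

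On the log2 scale, arrays were brought to a shared median over those probe sets that exceeded the array median 8 times out of 8. Signals are printed before the floor (the 40th percentile of each array) and ranges after it. Where the floor can hide part of a range, "at least" is written. A single gene symbol was given for 20832 probe sets, including 6 controls that were left out, and several symbols for 436. Gene identifiers of 20764 were found in the GRCr8 gene table and 0 symbols changed. The annotation can be old. The brightest probe set by median stood for a gene. Correlations used exact permutation over 40320 orders of the arrays, two-sided, with Benjamini-Hochberg adjustment over all measured genes, or over all pairs of probe sets of 1 gene. Python 3.11.15, numpy 2.4.6, pandas 2.3.3 and scipy 1.17.1 were used, and the spread and permutation steps were tested on simulated data.

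All 8 arrays were left without a group, so no treatment test, group mean or error was computed, and precision is limited by how few arrays there are. The members and gene lists were chosen with earlier results of these data known. Named are all members, the 2 most similar genes per measured member, the up to 3 widest genes by inner range and the 1 narrowest of each pathway list, and Lhcgr, Cyp19a1, Inha, Foxl2 and Cyp11a1. Other genes were named after their values were seen. The alternatives tried were the deposited scaling alone, quantile normalization, the floor lowered to the 25th percentile or removed, the low-signal filter applied to all 8 arrays or dropped, probe sets averaged, the full range, Spearman's rho, each array left out in turn, and arrays 2194 to 2199 alone. The lead of array 2198, with its alternatives, and the marker sums without each list's brightest gene were added after seeing the data.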

Additional observations from a re-analysis of the deposited data

Results flagged for a closer look

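Among 43 probe sets or genes named above, 7 had 1 array far from the other 7 by Dixon's ratio, the gap to the nearest array over the whole range, above its 95% critical value for 8 values. Chance flags about 1 in 20 sets of values. Ereg (ratio 0.703, 10139 on array 2198) and Ptgs2 (0.658, 9268 on array 2198) were among them, and Areg was not. Depdc1b (0.575, 1599), mrpl11 (0.587, 8321), Tubb1 (0.618, 1034) and Shisal2b (0.545, 969) were high on the same array, but they had been picked for their likeness to Ereg or Ptgs2. Ptgr1 was low on array 2199 (0.549, 3242), but it had been picked as the gene of its list with the narrowest inner range. A narrow inner range favours a high ratio. Over all 10467 measured genes, array 2198 was far above the rest in 42, or 0.401%, array 2195 in 199 and each of the other 6 in 6 to 16. Array 2199 was far below the rest in 53, or 0.506%, and each of the other 7 in 18 to 85. All 8 arrays thus had such genes on both sides.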

How the results depend on the processing

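The number of genes with a 2-fold inner range, 2 with the settings used, was 1 with a filter on all 8 arrays, which left 3 of the genes (19.3% of all genes), 5 by full range (71.4%), 0 to 2 when 1 array was left out and 0 with arrays 2194 to 2199 alone. It was 3, with Has2 added, when the floor was lowered or removed (39.5%), and quantile normalization called Has2 in place of Areg. Their median log2 inner range of 0.95 was 1.88 by full range and 0.69 to 0.96 when 1 array was left out, the lowest without array 2198. When 1 array was left out, r ran from -0.05 to 0.86 for Areg and Ereg, from -0.12 to 0.85 for Areg and Ptgs2 and from -0.63 to 0.94 for Ereg and Ptgs2, each lowest without array 2198, and Spearman's rho for Ereg and Ptgs2 was -0.05. Of 238 values of r or rho over 15 pairs, these 4 turned negative and 0 had an adjusted p under 0.05. Genes past the adjusted p for likeness numbered 0 under each of 8 alternatives that kept all arrays. The log2 inner range of Areg was 1.41 when the floor was lowered to the 25th percentile or removed, and that of Vcan 0.46 as the mean of its probe sets. The count led by array 2198 by at least 2-fold stayed at 2 or 3 under all 15 alternatives run. No paired analysis was possible because the labels give no groups. Low signal limits Areg, Btc, Has2 and Tnfaip6, and also Pgr, which was below the array median on arrays 2074, 2076 and 2199. With quantile normalization the log2 inner range of Pgr was 0.68, against 0.93 with the settings used.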

Other observations

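The other genes that array 2198 led by at least 2-fold, named here after their values were seen, included Hspa1a, which encodes a heat shock protein and reached 7562 against 227 to 3125 on the others, 8.71-fold above their median. Among them was also Plk2, a kinase of the polo family (2.64-fold above the next array, 2576 against 370 to 977 on the others). Umps, an enzyme of pyrimidine synthesis, reached 33625 against 5461 to 13235. Akr1b8, an aldo-keto reductase, reached 9075 against 1475 to 4132, and Srxn1, which repairs oxidised peroxiredoxins, 13111 against 2034 to 6304. Agt, angiotensinogen, reached 1346 against 147 to 575, and was under the floor on arrays 2194, 2195, 2196 and 2199. Many others were also near or under the floor on the remaining arrays. Whether array 2198 belongs to the serum or the antibody group is not given by its label.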
